A study of Ogataea haglerorum with 3 samples.

Results

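In log-phase Ogataea haglerorum, 178 genes had RNA levels that differed at least 1.5-fold between the highest and the lowest of 3 sequencing libraries. They were chosen from 4577 genes with a mean level of at least 10 CPM (counts divided by the library total and scaled by 1e6), out of 5345 genes measured. The highest and lowest CPM over the libraries chose the members, so these differences are a description and no test is given for them. The members made up 3.89% of the genes above the minimum level, and 29 genes (0.634%) differed at least 2-fold.

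Ogataea haglerorum is a methylotrophic budding yeast. The labels give haploid cells of the strain Phaff 81-453.3, grown in YPD (yeast extract, peptone and glucose) at 30 °C, with an overnight culture of 16 h diluted into fresh medium and harvested at an optical density of 0.8 to 1.2. All libraries form 1 group, numbered 1, 4 and 5, with no second strain, medium or treatment, so the differences below are between libraries and not between conditions. Whether the libraries stem from separate cultures is not stated in the labels, and the spread between them may be technical.

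Divergent genes lie side by side and are read away from each other, so that both start at the stretch between them; in budding yeasts such a stretch often serves as the promoter of both genes. Convergent genes end toward each other, and tandem genes are read in the same direction. Yeast genes close to chromosome ends are often little used in rich medium, and many of them are known to respond to nutrients or stress. No gene of the strain carries a name or a product in the sources used here, so genes are given by their IDs and positions, and no roles can be stated. Coordinates are those of the authors' files, whose genome build is not given in the sources used here.

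Library 1 had 34047362 counts in genes, library 4 had 44734719 and library 5 had 34526996. A count of 0 allows up to 3 counts, or 0.0881, 0.0671 and 0.0869 CPM. Every member had at least 186 counts in its lowest library. The exact 95% Poisson intervals of the highest and the lowest library did not meet for any of the 178 members, and for 76 the nearest bounds were still 1.5-fold apart. The same counts chose the members. At 186 counts or more, a ratio of at least 1.5 nearly fixes that the intervals do not meet. These intervals and floors cover counting error only, since PCR copies of a molecule were not told apart. For the median gene of the 4577, libraries 1 and 4 differed 1.07-fold, libraries 1 and 5 differed 1.09-fold and libraries 4 and 5 differed 1.09-fold.

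Most members were set by libraries 4 and 5. The members fell into 6 groups by which library was highest and which lowest. Library 4 was highest and library 5 lowest for 76 members (1.66% of the 4577 genes), the high-4/low-5 group. The opposite order, high-5/low-4, held 50 members (1.09%). There were 23 high-1/low-5 members (0.503%), 11 high-1/low-4 members (0.24%), 11 high-5/low-1 members (0.24%) and 7 high-4/low-1 members (0.153%). Libraries 4 and 5 were thus the extremes for 126 members (70.8%), and for 41.6% of all 4577 genes.

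The orders of the libraries were spread otherwise over all genes above the minimum level. Of these, 808 were highest in library 4 and lowest in library 5, and 9.41% of them were members. The order with library 5 highest and library 4 lowest was more common, with 1097 genes, of which 4.56% were members. The median ratio of highest to lowest CPM was nearly the same for both orders, 1.16 and 1.17. Most genes of either order thus differed little between libraries. The shares for the other orders were 2.74% for high-1/low-5, 1.77% for high-1/low-4, 1.5% for high-5/low-1 and 1.47% for high-4/low-1.

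**Figure D1:**
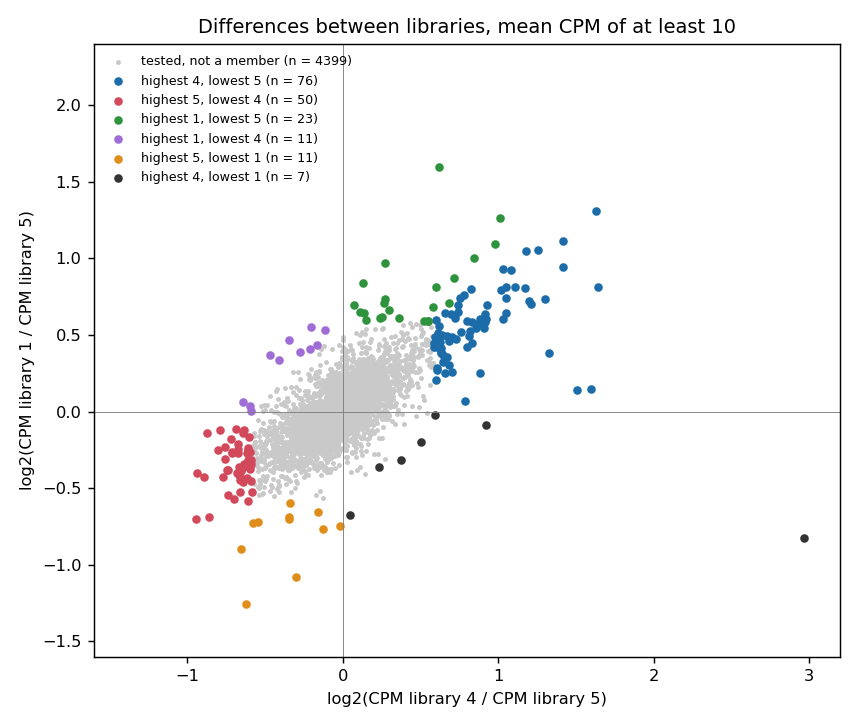
Each point is 1 of 4577 genes with a mean of at least 10 CPM. The x axis gives the log2 ratio of library 4 to library 5 and the y axis that of library 1 to library 5. The 178 members are coloured by group, and they surround the grey cloud of the 4399 other genes, with the high-4/low-5 group reaching farther out than the high-5/low-4 group on the other side.

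Large differences went mostly in 1 direction. A ratio of at least 2 was found for 21 of the 76 high-4/low-5 members, 4 of the 23 high-1/low-5 members, 2 of the 11 high-5/low-1 members and 2 of the 7 high-4/low-1 members. None of the 50 high-5/low-4 members and none of the 11 high-1/low-4 members reached it. The highest ratio was 3.12 in the high-4/low-5 group and 1.92 in the high-5/low-4 group. Library 5 was the highest or the lowest library for 27 of the 29 genes with a ratio of at least 2. Over all 178 members it was highest for 34.3% and lowest for 55.6%, and over the 4577 genes for 40.0% and 36.0%.

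The library in the middle also took different places. In the high-4/low-5 group, library 1 lay nearer to library 4 than to library 5, on the log2 scale, for 64 of the 76 members. In the high-5/low-4 group library 1 lay nearer to the highest library for 22 of the 50, so it stood about midway. Over all 4577 genes, in any order, the middle library lay nearer to the highest for 2242. The count for the 808 genes with library 4 highest and library 5 lowest was not made. Without library 5, 37 genes reached 1.5-fold, 34 of them members. Without library 4 there were 68, all of them members, and without library 1 there were 139, of which 138 were members.

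**Figure D2:**
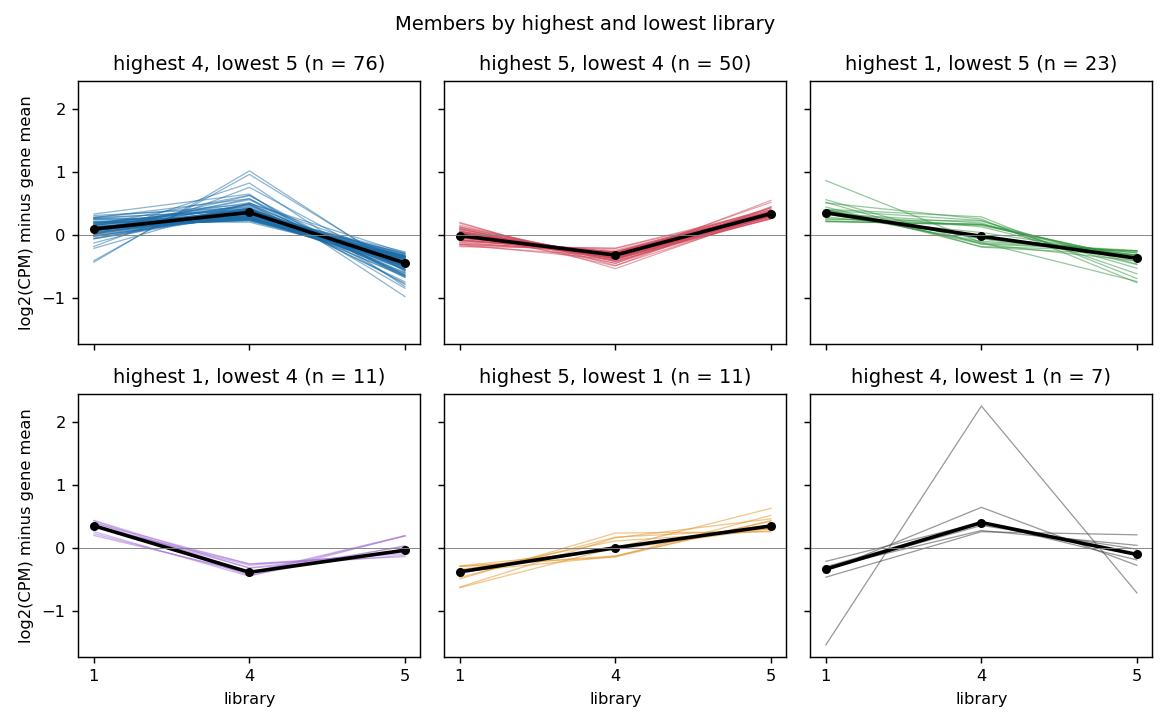
Each thin line is 1 member, and the y axis gives its log2 CPM in libraries 1, 4 and 5 less its own mean over the libraries. The black line joins the group medians. In the panel of 76 genes the lines fall mostly at library 5, and a single high-4/low-1 gene, KL911_002717, leaves the range of all others.

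In the high-4/low-5 group the 5 widest differences came in several forms. The level of KL911_004133 (chromosome 7, 937158 to 938447, minus strand) was 235 CPM in library 4, 133 CPM in library 1 and 75.3 CPM in library 5, a 3.12-fold range. KL911_005260 (chromosome 4, 1255097 to 1256440, plus strand) had 42.4, 52.8 and 17.1 CPM in libraries 1, 4 and 5, a 3.09-fold range. KL911_002134 (chromosome 6, 313233 to 314975, plus strand) had 21.4, 26.3 and 9.85 CPM, a 2.67-fold range. In the last 2 genes library 5 was low by itself, whereas KL911_004133 was spread evenly over the libraries.

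The remaining 2 of the 5 were raised in library 4 alone. KL911_004555 (chromosome 1, 162043 to 164127, minus strand) had 17.0, 46.4 and 15.3 CPM in libraries 1, 4 and 5, a 3.03-fold range. KL911_003684 (chromosome 6, 974058 to 975194, plus strand) had 11.7, 30.1 and 10.6 CPM, a 2.85-fold range. Libraries 1 and 5 were close in both genes. Their neighbours above the minimum level differed at most 1.22-fold between libraries. The divergent neighbour of KL911_004555, KL911_004556, starts 151 bases from it and had 31.4, 27.5 and 25.7 CPM, highest in library 1.

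The high-5/low-4 group held smaller ranges. KL911_003355 (chromosome 5, 161150 to 161776, minus strand) had 9.13, 7.71 and 14.8 CPM in libraries 1, 4 and 5, a 1.92-fold range. KL911_000402 (chromosome 3, 251377 to 252807, plus strand) had 12.9, 8.85 and 17.0 CPM, also a 1.92-fold range. KL911_002436 (chromosome 2, 1098011 to 1099114, minus strand) had 16.6, 12.1 and 22.4 CPM, a 1.85-fold range. These genes sat at low levels, with 9.35 to 17.5 TPM (a level per length, scaled to the same total in each library) on average over the libraries.

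KL911_002268 (chromosome 6, 69809 to 71305, plus strand) had 37.0, 22.3 and 40.8 CPM in libraries 1, 4 and 5, so that library 4 was low by itself. The fifth, gene_2816 (chromosome 4, 870430 to 871572, plus strand), had 16.2, 14.4 and 26.2 CPM and was high in library 5 alone. It was the 1 member whose ID did not match a locus tag of the RefSeq annotation, against 177 that did. Its convergent neighbour gene_2817 had 22.9, 29.3 and 22.3 CPM and was thus highest where gene_2816 was lowest.

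Among the high-1/low-5 members, KL911_004013 had the widest range. It lies at 1143464 to 1144434 of chromosome 3 (minus strand) and had 108 CPM in library 1, 54.8 CPM in library 4 and 35.8 CPM in library 5, a 3.03-fold range. KL911_002728 (chromosome 1, 858163 to 860100, minus strand) had 842, 517 and 429 CPM, a 1.96-fold range. In both genes library 4 lay between the others and nearer to library 5 on the log2 scale.

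The other 3 widest of that group were low in library 5 alone. KL911_001174 (chromosome 5, 646566 to 647333, plus strand) had 518, 477 and 242 CPM in libraries 1, 4 and 5, a 2.14-fold range. KL911_002030 (chromosome 6, 486616 to 486963, minus strand) had 64.8, 54.3 and 27.0 CPM, a 2.4-fold range. KL911_002886 (chromosome 1, 576004 to 577710, minus strand) had 74.3, 66.5 and 37.0 CPM, a 2.01-fold range. In these 3 genes library 1 exceeded library 4 by less than library 4 exceeded library 5.

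The 3 small groups were led by genes of low level, with exceptions. In the high-1/low-4 group, KL911_003347 on chromosome 5 at 147663 to 150062 had 14.3, 8.0 and 11.1 CPM in libraries 1, 4 and 5, and KL911_004204 on chromosome 7 at 814545 to 818243 had 15.7, 8.90 and 11.3 CPM. KL911_002047 on chromosome 6 at 462495 to 463160 stood higher, with 118, 69.6 and 80.2 CPM. KL911_004678 on chromosome 6 at 739359 to 740858 had 30.1, 17.9 and 23.8 CPM, and KL911_004625 on the same chromosome at 816079 to 818754 had 14.6, 8.96 and 14 CPM. Chromosome 6 held 5 of the 11 members of that group and 784 of the 4577 genes above the minimum level.

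In the high-5/low-1 group, KL911_002339 on chromosome 2 at 919637 to 920359 had 9.25, 14.4 and 22.1 CPM in libraries 1, 4 and 5, a 2.39-fold range. KL911_002810 on chromosome 1 at 709875 to 711292 had 288, 496 and 610 CPM, a 2.12-fold range. In the second gene library 4 lay nearer to library 5, and the tandem neighbours on both sides of it differed less than 1.1-fold between libraries. KL911_003290 on chromosome 7 at 459437 to 460474 had 15.4, 18.2 and 28.6 CPM. KL911_003421 on chromosome 5 at 276810 to 279518 had 11.8, 18.4 and 20.2 CPM, and KL911_002587 on chromosome 2 at 1331018 to 1332298 had 16.4, 27.2 and 27.6 CPM. In the last 2 genes libraries 4 and 5 were close and library 1 was low.

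KL911_002717 had by far the widest range of all members. It lies at 878309 to 879982 of chromosome 1 (plus strand) and had 5.46 CPM in library 1, 75.4 CPM in library 4 and 9.67 CPM in library 5, from 186, 3375 and 334 counts. Its 13.8-fold range compares with 3.12-fold for the next member. The nearest bounds of the Poisson intervals of libraries 4 and 1 were 11.6-fold apart. Its divergent neighbour KL911_002718, 272 bases away, was also a high-4/low-1 member.

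The other high-4/low-1 members had ranges under 1.7-fold. KL911_001028 on chromosome 2 at 718629 to 720467 had 8.17, 13.5 and 13.0 CPM in libraries 1, 4 and 5. KL911_003177 on chromosome 7 at 301103 to 304399 had 9.31, 15.1 and 10.7 CPM. KL911_003409 on chromosome 5 at 253378 to 254685 had 46.6, 75.3 and 58.0 CPM. Library 1 was low by itself in the first of these, and library 4 was high by itself in the second.

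Members were more often found at low levels. The median member had 34.3 TPM, against 65.6 TPM for all 4577 genes above the minimum. The median of the high-4/low-5 group was 37.6 TPM, that of the high-5/low-4 group 33 TPM and that of the high-1/low-5 group 57.4 TPM. The small groups had medians of 16.6, 21.9 and 11.4 TPM for high-1/low-4, high-5/low-1 and high-4/low-1. Of the genes with a mean of 10 to under 20 CPM, 44 of 417 were members (10.6%). The share was 5.09% from 20 to under 50 CPM, 2.37% from 50 to under 100 CPM and 2.33% from 100 to under 500 CPM. At 500 CPM or more, 14 of 378 genes were members (3.7%). Counting error grows as the level falls, and its part in these shares was not tested.

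The highest members all belonged to the high-4/low-5 group. The 5 members over 1000 TPM came from that group, out of 179 such genes, a share below the 3.89% of all 4577 genes. KL911_004990 (chromosome 4, 170908 to 171957, minus strand) had 12060 TPM in library 1, 13269 TPM in library 4 and 8789 TPM in library 5. Its 414008, 600695 and 308082 counts leave little counting error, and its range of 1.505-fold in CPM lay just inside the threshold. KL911_002240 (chromosome 6, 112346 to 112609, minus strand) was the shortest member, at 264 bases, and had 6436, 8256 and 4379 TPM.

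KL911_003806 (chromosome 6, 1183750 to 1184844, minus strand) had 2128, 2568 and 1360 TPM in libraries 1, 4 and 5. KL911_004002 (chromosome 3, 1128991 to 1130547, plus strand) had 2074, 2592 and 1389 TPM. KL911_001030 (chromosome 2, 722074 to 723036, plus strand) had 1076, 1220 and 798 TPM. In all 5 genes library 1 lay between the others and nearer to library 4 than to library 5 on the log2 scale. None of their neighbours with at least 10 CPM differed more than 1.3-fold between libraries. Together the 76 members of the group took 2.86% of the counts in library 1, 3.36% in library 4 and 1.99% in library 5. A large part of this came from KL911_004990 alone, with 12160, 13428 and 8923 CPM. The 50 high-5/low-4 members took 0.436%, 0.332% and 0.535%. In both groups the order of libraries 4 and 5 follows from how the members were grouped.

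The members close to chromosome ends nearly all had library 4 highest and library 5 lowest. Distance was measured from base 1 or from the last annotated base to the farther edge of the gene. Within 50 kb of an end lay 13 members, of which 11 belonged to the high-4/low-5 group and 2 to the high-1/low-5 group. Library 5 was thus lowest for all 13, and it was lowest for 55.6% of all members and 36.0% of the 4577 genes. How often it was lowest among all genes within 50 kb was not counted. Of all 185 genes above the minimum level within 50 kb, 7.03% were members, and within 20 kb 5 of 40 (12.5%), against 3.89% of the genes everywhere. These shares were not matched for level, and the part of level in them was not tested. Members made up 10.6% of all genes of 10 to under 20 CPM. The nearest high-5/low-4 member lay 62.1 kb from an end.

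The 13 genes near the ends were singled out after their values were seen. On chromosome 1, KL911_002676 at 942704 to 943747 had 805, 1115 and 418 CPM in libraries 1, 4 and 5. KL911_002673, at 947065 to 948543 on the same chromosome end, had 10.2, 12.1 and 7.79 CPM. At the left end of chromosome 1, KL911_004459 at 17397 to 19826 had 370, 527 and 228 CPM. These genes share the order of the libraries because they belong to the high-4/low-5 group, and their levels differed widely. The gene between the first pair with at least 10 CPM, KL911_002674, had 13.9, 15.0 and 19.0 CPM and was highest in library 5.

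Also in this order were KL911_000563 on chromosome 2 at 14717 to 16246, with 10.8, 13.5 and 8.86 CPM, and KL911_002651 on chromosome 2 at 1424158 to 1426482, with 21.6, 22.5 and 13.9 CPM. KL911_004112 on chromosome 3 at 1295404 to 1295880 had 12.1, 12.3 and 6.92 CPM, and KL911_002996 on chromosome 7 at 26344 to 26940 had 74.3, 86.2 and 53.1 CPM. On chromosome 4, KL911_005258 at 1251981 to 1253216 had 12.0, 12.9 and 7.82 CPM, and it was parted from KL911_005260 by 1 gene with at most 1.19 CPM. On chromosome 7, KL911_004137 at 931218 to 932300 had 11.5, 12.8 and 6.05 CPM and lay 4857 bases from KL911_004133.

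The 2 high-1/low-5 members near an end were KL911_004471 on chromosome 1 at 37296 to 38069, with 25.8, 24.1 and 16.1 CPM in libraries 1, 4 and 5, and KL911_004146 on chromosome 7 at 912905 to 913299, with 36.0, 23.3 and 22.2 CPM. Over the 40 genes within 20 kb that reached 10 CPM, the median log2 ratio of library 4 to library 5 was 0.05. It was 0.03 for the 145 genes from 20 to 50 kb, -0.03 for the 408 from 50 to 100 kb and -0.02 for the 3984 genes over 100 kb from an end. The median ratio of highest to lowest CPM was 1.24 within 20 kb, 1.15 from 20 to 50 kb and 1.13 beyond 100 kb. The count of members within 50 kb was 8, 7 and 2 without libraries 1, 4 and 5.

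**Figure D3:**
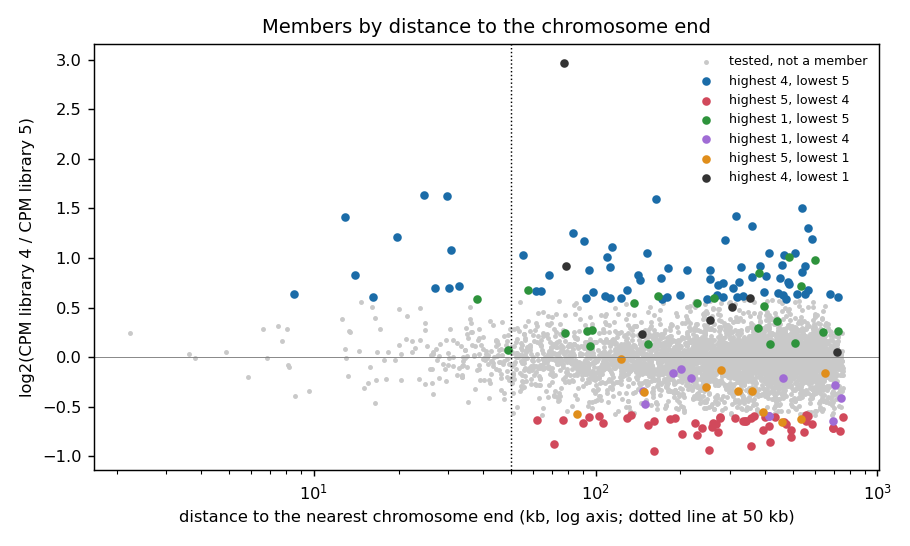
Each point is 1 gene with a mean of at least 10 CPM, placed by its distance to the nearest chromosome end (x, kb, log axis) and its log2 ratio of library 4 to library 5 (y). Left of the dotted line at 50 kb lie 13 coloured members, 11 of them of the high-4/low-5 group, and no high-5/low-4 member.

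The members were spread over all 7 chromosomes, with 22, 32, 19, 27, 25, 34 and 19 of them on chromosomes 1 to 7. The share of genes above the minimum level that were members ranged from 2.75% on chromosome 3 to 4.55% on chromosome 1. The high-4/low-5 group had its most members on chromosome 4, with 16, and on chromosome 2, with 15. The high-5/low-4 group had its most on chromosome 5, with 11, where the high-4/low-5 group had 6. The distance from an end had a median of 272 kb for all members, 251 kb for the high-4/low-5 group, 295 kb for the high-5/low-4 group and 318 kb for all genes above the minimum level.

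Gene length set the members little apart. Their median length was 1282 bases, with an exact 95% binomial interval of the median of 1143 to 1386 bases, and that of all 4577 genes was 1239 bases. The high-4/low-5 group had a median of 1170 bases, the high-5/low-4 group 1401, the high-1/low-5 group 1214, the high-1/low-4 group 1137, the high-5/low-1 group 1422 and the high-4/low-1 group 1674. The intervals of all 6 groups held the median of all genes, but those of the small groups are too wide to show a difference. For the 7 high-4/low-1 members the interval was the whole range, 1098 to 3297 bases. The intervals take genes as independent. Members made up 3.94% of genes of at most 400 bases, 4.39% of those over 1000 and up to 2000 bases and 2.56% of those over 3000 bases. A minimum in CPM admits long genes at lower levels than short ones, and with a minimum of 10 TPM in its place the median member was 1095 bases long.

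The longest member was KL911_003456, a high-5/low-4 gene of 7095 bases, and it was singled out after its values were seen. The length was a multiple of 3 for 167 members (93.8%) and for 88.8% of the 4577 genes. The median stretch between the start of a member and the next gene was 201 bases, against 148 bases for all genes above the minimum level. It was 212 bases in the high-4/low-5 group, 281 in the high-1/low-5 group and 144.5 in the high-5/low-4 group. No member overlapped a neighbouring gene.

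Few members stood side by side, and those that did were mostly divergent. Only 4 pairs of members were direct neighbours, and 3 of them were divergent and of the same group. Counted from both sides, 8 of the 301 neighbours of members with at least 10 CPM were members. For the other genes above the minimum level it was 293 of 7897 neighbours, so members did not adjoin members more often than other genes did. Of all 4099 pairs of neighbours above the minimum level, 27.6% were divergent. The divergent pair with the widest range was KL911_002718 and KL911_002717 on chromosome 1. KL911_002718, a minus-strand gene at 876801 to 878036, had 10.0, 20.2 and 10.7 CPM in libraries 1, 4 and 5, a 2.01-fold range beside the 13.8-fold range of its partner. The next genes on either side, KL911_002719 and KL911_002716, differed 1.10-fold and 1.05-fold. The 6 members beside one of their own group became 8, 2 and 2 without libraries 1, 4 and 5. Leaving out a library also leaves fewer groups, so neighbouring members share a group more easily.

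KL911_001589 and KL911_001590 on chromosome 4, 154 bases apart, were both high-4/low-5. KL911_001589, at 268551 to 269840, had 110, 124 and 80.2 CPM in libraries 1, 4 and 5. KL911_001590, at 269995 to 271032, had 46.9, 56.0 and 33.8 CPM. The gene that converges on KL911_001590, KL911_001591, missed the threshold with 91.2, 99.2 and 71.0 CPM, but had the same order of libraries. The gene on the other side, KL911_001588, had 67.3, 73.0 and 77.6 CPM and was highest in library 5.

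KL911_001238 and KL911_001239 on chromosome 5, 164 bases apart, were both high-5/low-4. KL911_001238, at 753828 to 754844, had 11.8, 9.23 and 15.4 CPM in libraries 1, 4 and 5. KL911_001239, at 755009 to 756865, had 57.9, 39.5 and 69.0 CPM. The next genes outward, KL911_001237 and KL911_001240, differed 1.17-fold and 1.09-fold. The fourth pair was convergent, 43 bases apart on chromosome 6. KL911_002031, at 484428 to 486572, had 62.0, 66.0 and 39.5 CPM and was high-4/low-5, and KL911_002030 was high-1/low-5. Both were lowest in library 5, which was thus the library they shared.

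**Figure D4:**
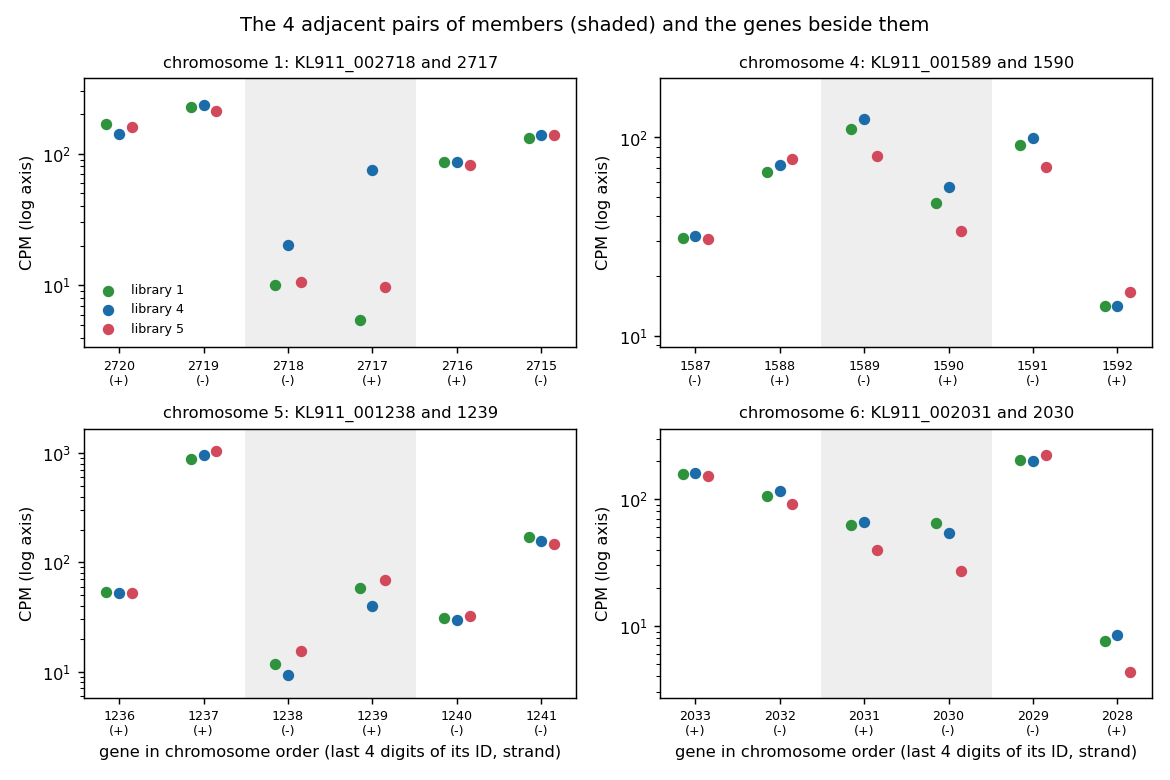
Each panel shows 1 of the 4 pairs of neighbouring members (shaded) with 2 genes on either side, and the y axis gives CPM in libraries 1, 4 and 5 on a log axis. The 3 divergent pairs keep the same order of libraries in both genes, and most genes beside them have nearly equal points.

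The genes next to a member shared its difference in part, and chiefly where they were divergent. For each neighbour with a mean of at least 10 CPM, the log2 ratio of the member's highest to its lowest library was taken in the neighbour, less the median of that ratio over all 4577 genes. Over the 87 divergent neighbours the median was 0.14 (exact 95% binomial interval of the median 0.08 to 0.21), and 66 of them (75.9%) lay above 0. The median was 0.05 for 59 tandem neighbours upstream of a member, 0.03 for 63 tandem neighbours downstream and -0.04 for 92 convergent neighbours. Of the convergent neighbours 42.4% lay above 0, and the interval of their median was -0.07 to 0.01. Without libraries 1, 4 and 5 the divergent median was 0.18, 0.14 and 0.08, and the convergent median -0.04, -0.05 and -0.02. No test over genes was run on these differences, and the intervals take genes as independent.

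Among other genes, too, the median was highest for divergent neighbours and lowest for convergent ones, with a smaller gap between them. For the 4399 genes that were not members, the median over divergent neighbours was 0.05, with 63.4% above 0, and over convergent neighbours it was 0.01, with 53.4% above 0. The highest and lowest library of such a gene differ little and are set by smaller differences, so the 2 sets are not matched. Among members the divergent medians were 0.20 for the high-4/low-5 group over 32 neighbours and 0.11 for high-5/low-4 over 29. For high-1/low-5 the divergent median was 0.22 over 11, with an interval of -0.23 to 0.45. The small groups had 5 divergent neighbours each, with medians of 0.10 for high-1/low-4, 0.03 for high-5/low-1 and -0.05 for high-4/low-1. The convergent median of the high-4/low-5 group was -0.08, and 13 of its 36 convergent neighbours lay above 0. The convergent median was -0.02 for high-5/low-4 and -0.03 for high-1/low-5. It was 0.04, 0.05 and 0.01 for high-1/low-4, high-5/low-1 and high-4/low-1, over 6, 5 and 2 neighbours.

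Divergent neighbours were also split by spacing. The median was 0.19 (exact 95% interval 0.10 to 0.28) for the 49 that started under 250 bases from the member, of which 42 (85.7%) lay above 0. It was 0.08 (-0.02 to 0.23) for the 23 from 250 to under 500 bases away and 0.03 (-0.16 to 0.19) for the 15 farther off. The 3 intervals overlap, and the pairs of neighbouring members are counted from both sides. For genes that were not members the same 3 medians were 0.06, 0.04 and 0.04. The 83 convergent neighbours under 250 bases away had a median of -0.04.

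**Figure D5:**
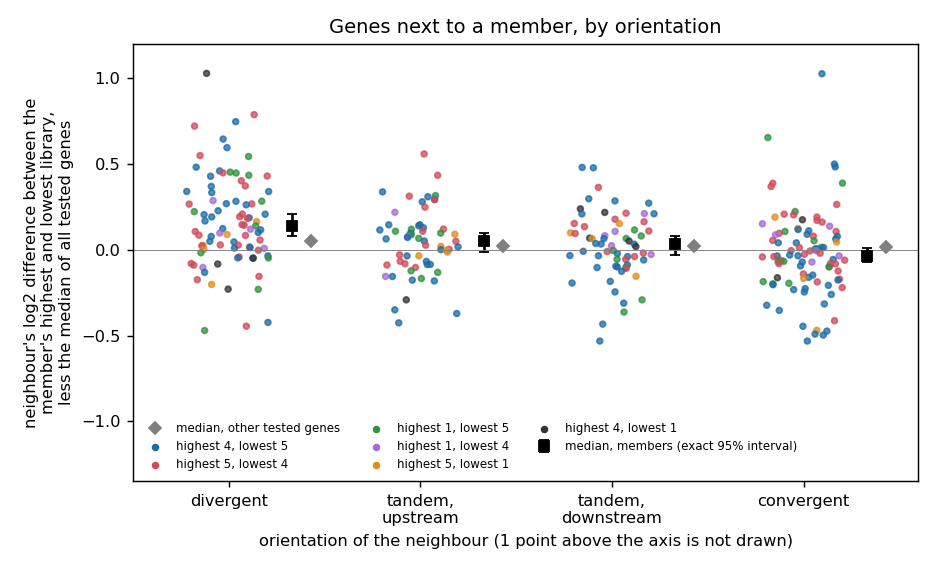
Each point is 1 neighbour of a member with at least 10 CPM, coloured by the member's group (1 divergent point above the axis is not drawn). The y axis gives its log2 difference between the member's highest and lowest library, less the median of all 4577 genes, and squares give the medians with exact 95% intervals. The square stands at 0.14 for divergent and at -0.04 for convergent neighbours, and grey diamonds give the medians for genes that are not members.

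Single neighbours show the size of these differences. KL911_004014, divergent from KL911_004013 at 240 bases, had 184, 161 and 136 CPM in libraries 1, 4 and 5 and thus the order of its partner with a 1.35-fold range in place of 3.03-fold. KL911_003356, 72 bases from KL911_003355, had 551, 548 and 747 CPM and was likewise highest in library 5, from a far higher level. KL911_001173, 623 bases from KL911_001174, had 104, 98.0 and 85.4 CPM and was lowest in library 5 as its partner was. These neighbours missed the threshold while following the member's order.

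Other divergent neighbours hardly followed, or differed the other way. KL911_000403, 633 bases from KL911_000402, had 2332, 2028 and 2094 CPM in libraries 1, 4 and 5 and was highest in library 1. KL911_004205, 162 bases from KL911_004204, had 16.8, 16.5 and 17.1 CPM, a range of 1.04-fold beside 1.76-fold. Less the median of all genes, their log2 differences were 0.03 and 0.01, so both count among the 66 of 87 above 0. KL911_003408, 135 bases from KL911_003409, stood at -0.23. It had 10.25, 8.63 and 11.2 CPM, lowest in library 4 where KL911_003409 was highest. Convergent neighbours at times differed the other way between the member's highest and lowest library. KL911_004134, which ends 9 bases from KL911_004133, had 16.1, 12.7 and 16.5 CPM, lowest in library 4 where KL911_004133 was highest. KL911_002887, 97 bases from KL911_002886, had 84.8, 66.0 and 97.5 CPM and was highest in library 5 where KL911_002886 was lowest.

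Taken without regard to orientation, the likeness was small at every place. The median difference was 0.03 and 0.05 for the genes directly to the left and right of a member and 0.02 and 0.03 at 2 places. It was -0.01 and 0.03 at 3 places, -0.01 and 0.03 at 4 places, and 0.01 and -0.04 at 5 places. Within 5 genes of each other lay 29 pairs of successive members, 11 of the same group (37.9%) and 18 of different groups. Of all pairs of members, wherever they lay, 28.3% were of the same group. The 11 pairs held 22 members, among them KL911_002728 with KL911_002725 on chromosome 1, both high-1/low-5 and parted by 2 genes that differed 1.08-fold and 1.05-fold.

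Values near the thresholds were close to each other. Just inside the ratio lay KL911_001463 with a ratio of 1.502, KL911_001875 with 1.503 and KL911_004795 with 1.504. Just outside lay KL911_003883 and KL911_004711, each with a ratio of 1.495, and KL911_000704 with 1.497. Just above the minimum level lay KL911_002673 with 10.02 CPM on average, KL911_004137 with 10.1 CPM and KL911_004112 with 10.4 CPM. Just below it, with ratios of at least 1.5, lay KL911_003996 with 9.68 CPM, KL911_001362 with 9.49 CPM and KL911_005199 with 9.42 CPM.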

How the data were processed

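Polyadenylated RNA of 3 libraries was sequenced as single reads of 150 bases, per the labels' protocols. The deposited counts were made by the authors with featureCounts 2.0.1 on the gene entries of the authors' annotation file, counting 1 strand (option 1), per the file headers. HISAT2 2.2.1, SAMtools, deepTools and HTSeq are also named in the submitters' processing notes, with no role given. The deposited TPM values are the authors' own and correct for gene length. Values of genes with a close paralog are uncertain, because copies were not compared.

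CPM was computed as counts over the column total. Members had a mean CPM of at least 10 and a highest-to-lowest ratio of at least 1.5. The members and lists were chosen with earlier results of these data known. With 1 group, no comparison of conditions and no test over samples was possible. Named were the 5 members of highest ratio in each group, the 5 of highest mean TPM, neighbouring members, genes at the thresholds and their neighbours. Gene lists and promoter motifs were planned for named genes and were not used here, since no ID carries a name. Poisson and median intervals are exact, at 95%. Per-sample columns left unused numbered 0. The code of the rule was checked on simulated counts with counting error only. The planted differences lay in genes of at least 50 CPM and away from the 1.5-fold threshold, so lower levels and the threshold were not covered. Alternatives covered scaling with edgeR 4.0.16 (TMM) and DESeq2 1.42.0 (size factors) in R 4.3.3, thresholds, deposited TPM and each library left out. Python 3.11.15, numpy 2.4.6, pandas 2.3.3, scipy 1.17.1 and matplotlib 3.10.9 were used.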

Additional observations from a re-analysis of the deposited data

How the results depend on the processing

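The number of members was 174 with TMM scaling and 173 with DESeq2 size factors, and 169 genes were shared with the 178 under each. It was 181 with deposited TPM of at least 10, of which 153 were shared. It moved to 29 at a ratio of at least 2, to 76 at a mean of at least 50 CPM, to 76 with the nearest Poisson bounds 1.5-fold apart, and to 537 with no minimum beyond 1 count. Under the same 4 settings the high-4/low-5 group numbered 21, 34, 45 and 174, the Poisson setting for this group being added after seeing the data. Members beside a member of the same group, 6 in all, numbered 2 at a ratio of at least 2, 0 at 50 CPM, 51 with no minimum, and 22 within 5 genes. Members within 50 kb of an end, 13 in all, numbered 5, 4 and 104 under the first 3 of these settings, and 5 within 20 kb. The median length of 1282 bases moved to 1072 with no minimum and to 1095 with deposited TPM. Leaving out 1 library gave 37 to 139 members, 84 in the high-4/low-5 group without library 1 (the other omissions remove that group), 2 to 8 members beside a member of the same group, 2 to 8 within 50 kb and a median length of 1240 to 1294 bases.

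The settings on neighbours were chosen after seeing the data. The divergent median of 0.14 became 0.215 at 50 CPM and 0.0285 at 500 bases or more apart, and lay between 0.08 and 0.18 with 1 library left out. It was 0.12 without neighbours that are members and 0.16 with TMM scaling. The convergent median of -0.04 became -0.16 at a ratio of at least 2, over 13 neighbours, and lay between -0.05 and -0.02 with 1 library left out. The cause of these shifts was not tested. Fewer members at stricter thresholds follow from the construction of these settings. Any 2 libraries give a ratio no higher than all 3. They also form fewer groups, so neighbouring members share a group more easily. No paired analysis was possible because every library belongs to the same group. Depth limits the members of lowest level most.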

Other observations

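Genes below the minimum level also differed between libraries. Of the 768 genes with a mean under 10 CPM, 395 had at least 50 counts in every library, and 135 of these (34.2%) differed at least 1.5-fold. Library 4 was highest and library 5 lowest for 45 of the 135, library 1 highest and library 5 lowest for 30, and library 5 highest and library 4 lowest for 19. Counting error is larger at these depths, and its part in the result was not tested. The widest range belonged to KL911_004292 on chromosome 7 at 669038 to 670684, which was singled out after its values were seen. It had 6.58 CPM in library 1, 16.8 CPM in library 4 and 1.68 CPM in library 5, from 224, 752 and 58 counts. KL911_000802 on chromosome 2 at 372634 to 373860 followed with 3.14, 7.35 and 1.71 CPM, from 107, 329 and 59 counts. Both had the order of libraries of the largest group of members. Within 50 kb of a chromosome end lay 25 of the 135 (18.5%), and 71 of the 395 (18.0%).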
